A study of Homo sapiens with 12 samples.

Results

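A set of 9 genes of the prostaglandin E2 pathway was followed through RNA sequencing of T24, a cell line from a human bladder carcinoma, in which the small nuclear RNA U11 had been targeted for knockout or overexpressed. The 9 genes were picked by name out of the 60504 entries of each deposited gene table and read in all 12 libraries. PLA2G4A releases the substrate, PTGS1 and PTGS2 are the cyclooxygenases, PTGES, PTGES2 and PTGES3 are prostaglandin E synthases, PTGER2 and PTGER4 are receptors, and HPGD degrades the product. In the knockout comparison, 2 libraries labelled U11 knockout were set against 2 libraries of untreated T24. In the overexpression comparison, 6 libraries labelled U11 overexpression, 2 for each of the line labels 79, 86 and 87, were set against 2 other libraries of untreated T24. Per the study's methods, the knockout cells came from monoclonal lines made with CRISPR/Cas9 and chosen by quantitative PCR of U11, and the overexpressing cells were selected clones carrying a pcDNA-U11 plasmid. What the line labels stand for, and whether the libraries of a label came from separate cultures, is not given in the sources used here, so P values measure the spread between these libraries, which may be technical.

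Prostaglandin E2 is a short-lived lipid signal made from arachidonic acid. Cytosolic phospholipase A2, encoded by PLA2G4A, frees arachidonic acid from membranes, a cyclooxygenase turns it into prostaglandin H2, and a terminal synthase completes prostaglandin E2. PTGS1 is usually described as the constitutive cyclooxygenase, while PTGS2 is an early response gene driven by inflammatory signals through NF-kappa B, C/EBP and cAMP-responsive factors, and its protein is often raised in urothelial carcinoma. The receptors EP2 (PTGER2) and EP4 (PTGER4) raise cAMP in the receiving cell, and 15-hydroxyprostaglandin dehydrogenase (HPGD) inactivates the signal.

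The promoters of PTGS2, PTGS1 and PLA2G4A, the genes that passed the thresholds in the knockout comparison, are shown first. Those of PTGER4 and PTGES2, which differed among the line labels, are not shown. Each is the 250 bases upstream of a RefSeq start site, 5′ to 3′ on the strand of the gene (GRCh38.p14). The windows are chr1:186680424-186680673 (minus strand) for PTGS2, chr9:122370283-122370532 (plus strand, the more upstream of 2 RefSeq windows and the one that meets the start of the gene in the files) for PTGS1, and chr1:186828699-186828948 (plus strand) for PLA2G4A.
PTGS2: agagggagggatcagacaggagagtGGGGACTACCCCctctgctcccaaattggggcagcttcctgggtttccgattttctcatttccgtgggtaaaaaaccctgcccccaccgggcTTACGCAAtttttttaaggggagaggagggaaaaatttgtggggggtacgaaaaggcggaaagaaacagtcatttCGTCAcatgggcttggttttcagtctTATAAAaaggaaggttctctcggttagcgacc
PTGS1: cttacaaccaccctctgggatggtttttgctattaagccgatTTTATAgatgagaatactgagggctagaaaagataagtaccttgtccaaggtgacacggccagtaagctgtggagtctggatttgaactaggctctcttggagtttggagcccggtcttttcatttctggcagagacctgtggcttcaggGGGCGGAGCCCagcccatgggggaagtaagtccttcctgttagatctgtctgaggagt
PLA2G4A: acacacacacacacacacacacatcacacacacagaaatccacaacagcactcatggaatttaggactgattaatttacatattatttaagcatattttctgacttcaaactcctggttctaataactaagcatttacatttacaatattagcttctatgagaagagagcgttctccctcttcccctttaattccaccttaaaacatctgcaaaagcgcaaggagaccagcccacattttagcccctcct

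Capitals mark matches, on either strand, to 5 patterns. The NF-kappa B-like pattern was GGG and CC with 5 bases of any kind between them, and the AP-1 pattern was TGA and TCA with 1 base of any kind between them. The C/EBP-like pattern was TTNNGNAA. The core of a cAMP response element was searched as CGTCA. For the TATA box the pattern was TATAAA. In the PTGS2 window, overlapping NF-kappa B-like matches lay 225 to 214 bases before the start site, TTNNGNAA 133 to 126 bases before it, CGTCA 58 to 54 bases before it and TATAAA 32 to 27 bases before it. The PTGS1 window held overlapping NF-kappa B-like matches 58 to 48 bases before the start site and a TATAAA match on the opposite strand 208 to 203 bases before it. The PLA2G4A window held none of the 5. Of 35116 RefSeq promoter windows, 54.4% held the NF-kappa B-like pattern, 33.2% TTNNGNAA, 21.2% CGTCA, 6.6% the AP-1 pattern and 10.7% TATAAA. The patterns were written down after the PTGS2 sequence had been seen, so these matches describe the sequence and nothing is drawn from them.

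Levels are given as TPM, a unit per gene length that sums to the same total in every library. U11 itself, summed over its entries, was at 31.6 and 37.4 TPM in the libraries labelled knockout with 21.4 and 23.8 TPM in their controls. That direction is opposite to the label (exact permutation test of the difference in means, two-sided, p = 0.333, the smallest that 2 against 2 libraries allow). Among the overexpression labels, U11 was at 61.9 and 53.6 TPM in line 87, at 3.98 and 3.72 TPM in line 86 and at 0.18 and 0.41 TPM in line 79, against 0.033 and 0.62 TPM in the controls (exact permutation test over 6 and 2 libraries, p = 0.393, smallest possible 0.0357). The libraries labelled U11 knockout are therefore named by their label throughout, and no direction is drawn from it. The quantitative PCR of U11 was not analysed here. Untreated T24 was at 21.4 and 23.8 TPM of U11 in the knockout comparison and at 0.033 and 0.62 TPM in the other. How well TPM measures U11 in these libraries was not tested. Each library held 9.07 to 15.33 gigabases of aligned reads as estimated from coverage. The libraries of the 2 comparisons were of different kinds: the 10 most abundant genes took 45.5% to 49.6% of all TPM for the knockout label and its controls, and 7.06% to 7.56% for the overexpression labels and theirs. Levels were therefore compared only within a comparison, apart from an alternative run that pooled all 4 controls. KRT7, an epithelial keratin, was at 1085 TPM or more in every library. The haematopoietic markers LYZ (1.55 to 1.68 TPM), CD3E (0.50 to 0.91 TPM) and PTPRC (0.27 to 0.50 TPM) were found in all 4 libraries with the code R18019, the control included, and were at most 0.052 TPM in the 4 with the code R17018. In bulk RNA, fewer cells of a type and less RNA per cell cannot be told apart.

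**Figure D1:**
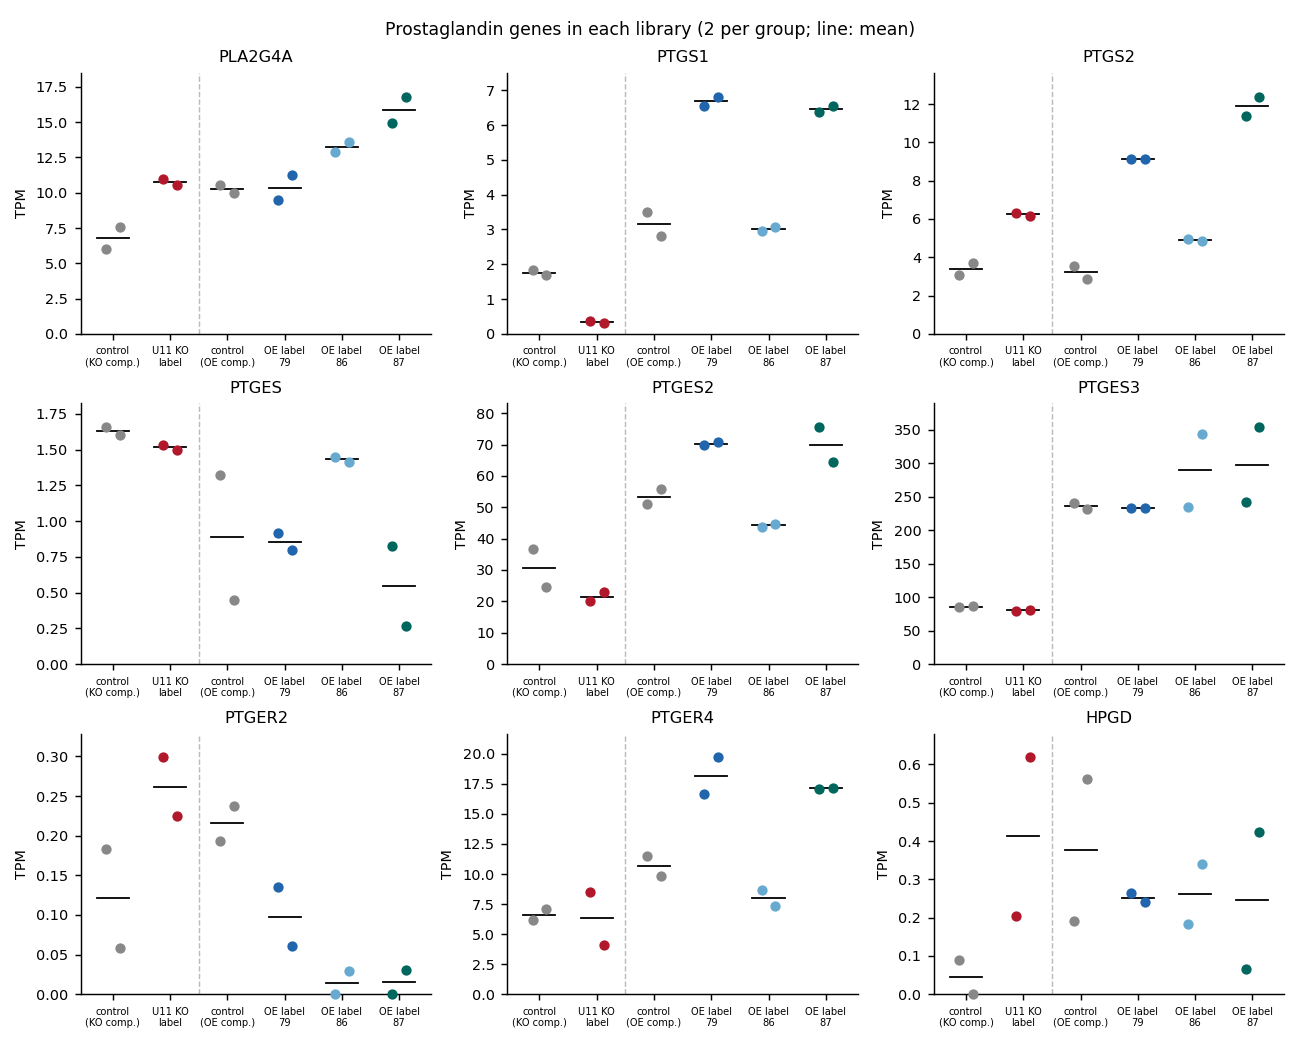
TPM of each of the 9 genes (vertical axes, each from 0) in every library, by group (horizontal axes), with 1 point per library, 2 libraries per group and a line at the mean. The dashed line divides the knockout comparison (left) from the overexpression comparison (right), whose levels are not comparable. PTGS2 was above its controls in every labelled library, and PTGS1 was below its controls under the knockout label.

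In the libraries labelled U11 knockout, PTGS2 and PLA2G4A rose and PTGS1 fell, while the synthases and PTGER4 did not pass the test. PTGS1 reached the minimum for a test through its controls alone, so that its call was not independent of the difference. Calls needed both a limma P below 0.05 before adjustment and a change of 1.5-fold or more on the scale of log2(TPM + 1), which understates the change of low genes. Of the 9 genes, 7 reached 1 TPM in 2 or more of the 4 libraries and were tested, and 3 were called, 2 higher and 1, PTGS1, lower. Of all 14356 genes tested, 11.8% were called, 8.61% higher and 3.15% lower, and 6.85% were called with P adjusted over all genes by the Benjamini-Hochberg method. The median log2 fold change over all genes was 0.11. Scaling by median ratios brought it to 0.0028 and moved the share of calls that were higher from 73.2% to 52.8%.

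PLA2G4A (chromosome 1, 186828953-186988981, hg38) encodes the phospholipase that supplies the pathway. It was at 10.9 and 10.5 TPM under the knockout label and at 5.98 and 7.60 TPM in the controls. Both labelled libraries were above both controls, as was the case for 39.9% of all genes tested. Its log2 fold change was 0.60 ± 0.15 (SE, n = 2 against 2) with a limma adjusted P of 0.0774, so the call held before adjustment only. With median ratio scaling the change was 0.49, under the fold threshold, and without control replicate 1 it was 0.45.

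PTGS2 (chromosome 1, 186671791-186680427, minus strand), the inducible cyclooxygenase, lies 148.5 kb from PLA2G4A in the files' annotation. It was at 6.33 and 6.18 TPM under the knockout label against 3.07 and 3.69 TPM in the controls. The groups did not overlap, and the log2 fold change was 0.73 ± 0.13 (SE), a 1.66-fold rise with a limma adjusted P of 0.0448. After median ratio scaling it was 0.63.

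PTGS1 (chromosome 9, 122370530-122395703), the constitutive cyclooxygenase, went the other way. It was at 0.36 and 0.31 TPM under the knockout label against 1.83 and 1.68 TPM in untreated T24, a mean of 0.338 ± 0.035 against 1.76 ± 0.10 TPM (SD, n = 2 each). Both labelled libraries were below both controls, as were 20.4% of all genes tested. The log2 fold change was -1.04 ± 0.12 (SE), with a limma adjusted P of 0.0214, and it was -2.08 with a pseudocount of 0.1 in place of 1. Without either control library PTGS1 was under the minimum and was not tested. Another entry of the annotation overlaps PTGS1 on the same strand, and reads of the shared part cannot be divided between them.

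Added together, the cyclooxygenases came to 6.49 to 6.69 TPM under the knockout label and to 4.90 to 5.37 TPM in the controls. PTGS2 made up 94.6% to 95.2% of that sum under the label and 62.7% to 68.7% in the controls. The ratio of PTGS2 to PTGS1 was 17.4 and 19.7 in the labelled libraries and 2.19 and 1.68 in the controls.

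**Figure D2:**
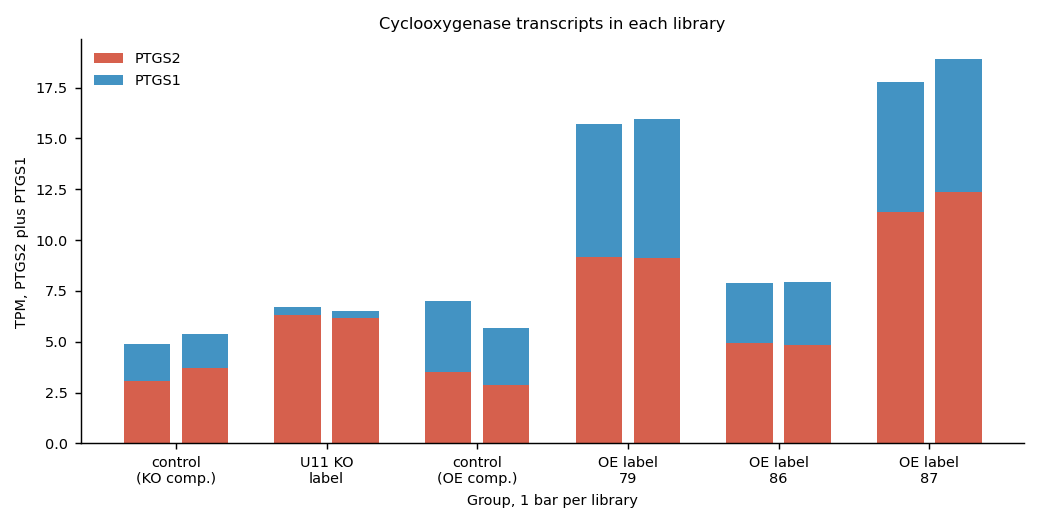
TPM of PTGS2 and PTGS1 stacked in 1 bar for each library (vertical axis from 0), by group (horizontal axis). Under the knockout label PTGS1 was at most 0.36 TPM, while under the overexpression labels 79 and 87 both genes were above their controls.

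For each of the 3 prostaglandin E synthases, both libraries under the knockout label were below both controls, as for 20.4% of all genes tested. None of the 3 passed the test. PTGES (chromosome 9, 129738331-129753047, minus strand), the inducible microsomal synthase, was at 1.54 and 1.501 TPM against 1.66 and 1.60 TPM, a log2 difference of -0.06 with a 95% interval of -0.37 to 0.25. PTGES2 (chromosome 9, 128120693-128128462, minus strand), a membrane-associated synthase, was at 19.98 and 23.1 TPM against 36.6 and 24.7 TPM, a log2 difference of -0.47 with an interval of -1.01 to 0.075. The spread of PTGES2 lay in the controls, and without control replicate 2 its difference was -0.74 and was called.

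PTGES3 (chromosome 12, 56663341-56688408, minus strand), also known as the HSP90 cochaperone p23, was by far the most abundant of the 9 per length, at 79.8 and 81.2 TPM against 85.1 and 86.1 TPM. Its log2 difference was -0.09 (interval -0.30 to 0.12). The pseudogenes PTGES3P1 and PTGES3P3, which may share its reads, were listed at 16.4 to 41.0 and 5.99 to 12.7 TPM over the 12 libraries, so the level of PTGES3 is uncertain.

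Of the receptors, PTGER4 (chromosome 5, 40679498-40693735), which encodes EP4, was at 8.51 and 4.09 TPM under the knockout label and at 6.16 and 7.08 TPM in the controls. Its coverage was 30.5 and 28.5 reads per base under the label and 24.1 and 31.0 in the controls. The labelled libraries were thus closer in coverage than in TPM, and the reason was not tested. The groups overlapped, and the log2 difference of -0.13 had an interval of -0.95 to 0.69, wide enough to hold a change past the threshold either way. Without the labelled replicate 2 the difference was 0.32. PTGER2 (chromosome 14, 52314305-52328606), which encodes EP2, was at 0.30 and 0.23 TPM against 0.18 and 0.058 TPM. HPGD (chromosome 4, 174490177-174523154, minus strand) was at 0.21 and 0.62 TPM in the labelled libraries, and in the controls it was at 0.090 TPM in one and listed at 0 in the other. PTGER2 and HPGD were under the minimum and were not tested, and their coverage was at most 2.91 and 1.19 reads per base over the 12 libraries.

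In the overexpression comparison, taken as 6 libraries against 2, PTGS2 rose and was the one gene called of 7 tested. Over all 15768 genes tested, 1.93% were called, 0.767% higher and 1.16% lower, and 0.165% were called with adjusted P. All 7 genes had a log2 difference above 0, with a median of 0.31 against -0.02 over all genes. Taken by line label, 6 of the 7 were above 0 in line 79, 4 in line 86 and 6 in line 87. PTGES, at 0.05, turned below 0 in 3 of the 8 runs that left out 1 library. The share of all genes above 0 is not given here.

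PTGS2 was lowest at 4.85 TPM, had a median of 9.14 TPM and reached 12.4 TPM among the 6 labelled libraries, against 3.54 and 2.88 TPM in the controls. Every labelled library lay above both controls, as did 4.62% of all genes tested. The log2 fold change was 1.13 ± 0.33 (SE), with an unadjusted P of 0.00847 and a limma adjusted P of 0.534. The call was lost without control replicate 2 (1.01, unadjusted P over the threshold). Within the library code R17018 the log2 difference was 1.0003 and within R18019 it was 1.25, each with 3 libraries against 1 and neither called.

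The spread of PTGS2 within the overexpression group followed the line labels. It was at 9.15 and 9.12 TPM in line 79, at 4.94 and 4.85 TPM in line 86 and at 11.4 and 12.4 TPM in line 87. The libraries of each label stayed close together, and the labels did not overlap. Against controls the log2 fold change was 1.27 ± 0.11 (SE, limma adjusted P = 0.00175) in line 79 and 1.62 ± 0.11 (limma adjusted P = 0.00109) in line 87. In line 86 it was 0.49 ± 0.11 (unadjusted P = 0.00353, limma adjusted P = 0.103), which is under the fold threshold.

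PTGS1 was at 6.56 and 6.81 TPM in line 79 and at 6.39 and 6.55 TPM in line 87, against 3.49 and 2.80 TPM in the controls. It rose in both, by 0.89 ± 0.12 (SE, limma adjusted P = 0.00688) and 0.85 ± 0.12 (limma adjusted P = 0.0155) on the log2 scale. In line 86, at 2.94 and 3.07 TPM, it lay between the controls, with a difference of -0.04 and an interval of -0.32 to 0.23. Over all 6 labelled libraries PTGS1 was not called (0.57). It was called when either library of line 86 was left out, with a change of 0.69 in each case.

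The sum of both cyclooxygenases was 15.7 to 15.9 TPM in line 79 and 17.8 to 18.9 TPM in line 87, against 7.88 to 7.93 TPM in line 86 and 5.69 to 7.03 TPM in the controls. The ratio of PTGS2 to PTGS1 was 1.34 to 1.395 in line 79, 1.58 to 1.68 in line 86 and 1.78 to 1.89 in line 87, while in the controls it was 1.01 and 1.03.

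PTGER4 was at 16.6 and 19.7 TPM in line 79 and at 17.1 and 17.2 TPM in line 87, with controls at 11.5 and 9.84 TPM. The receptor rose by 0.72 ± 0.13 (SE, limma adjusted P = 0.0198) in line 79 and by 0.64 ± 0.13 (limma adjusted P = 0.0506) in line 87. The second call rests on unadjusted P and was lost without control replicate 2 (0.54). In line 86 PTGER4 was at 8.67 and 7.37 TPM, below both controls, with a log2 difference of -0.37 (limma adjusted P = 0.278) that was not called.

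**Figure D3:**
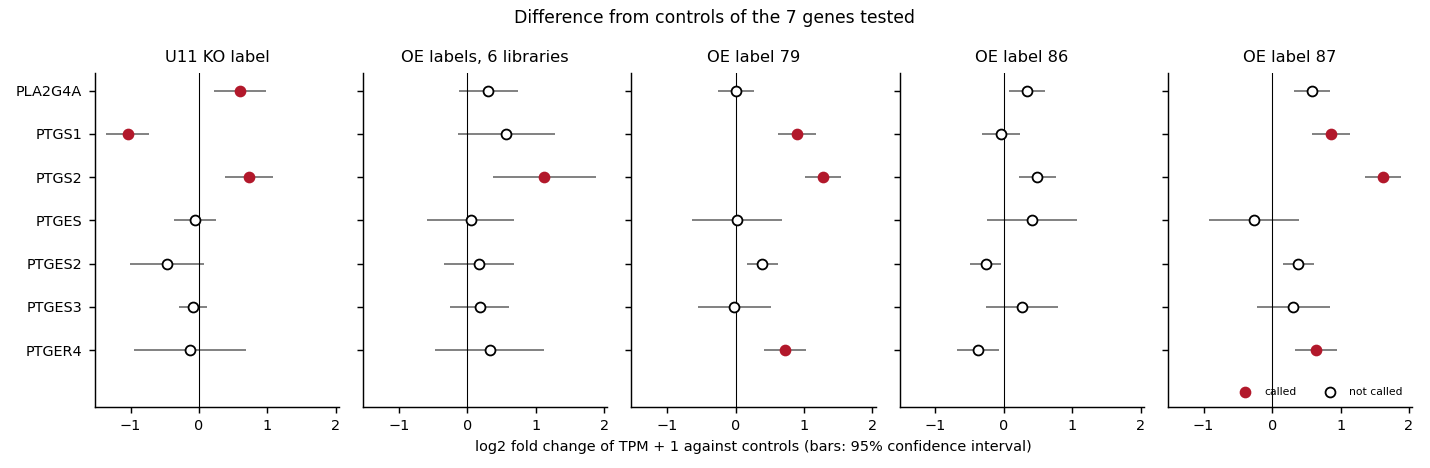
Log2 fold change of TPM + 1 against controls (horizontal axis) for the 7 tested genes (vertical axis), in 1 panel for each comparison or line label, with bars for the 95% confidence interval. Filled points were called. PTGS2 lay above 0 in all 5 panels, PTGS1 lay at -1.04 under the knockout label and at 0.89 and 0.85 in lines 79 and 87, and no gene was called in line 86.

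PLA2G4A was at 9.45 and 11.2 TPM in line 79, at 12.9 and 13.6 TPM in line 86 and at 15.0 and 16.8 TPM in line 87, with controls at 10.5 and 9.98 TPM. Lines 86 and 87 lay above the controls and line 79 overlapped them. The difference of line 87 was 0.58 (limma adjusted P = 0.046), just under the log2 threshold of 0.585, and it passed that threshold at 0.59 with median ratio scaling.

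PTGES2 was at 69.8 and 70.9 TPM in line 79, at 43.8 and 44.7 TPM in line 86 and at 75.6 and 64.3 TPM in line 87. The controls, at 51.0 and 55.7 TPM, lay above line 86 and below the others. None of these differences reached the fold threshold, at 0.39 in line 79, -0.26 in line 86 and 0.38 in line 87.

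PTGES differed widely between the libraries of the controls and of line 87. It was at 1.32 and 0.45 TPM in untreated cells and at 0.83 and 0.27 TPM in line 87, where the coverage of the lower library was 1.03 reads per base. Lines 79 (0.91 and 0.80 TPM) and 86 (1.45 and 1.41 TPM) were closer, and the control spread left an interval of -0.58 to 0.69 on its log2 difference of 0.05 over all 6 libraries. Left without control replicate 1, PTGES in line 86 was 0.75 above the remaining control. It then passed the filter through line 86 alone, so that run is no sign of a difference.

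PTGES3 was at 343 and 354 TPM in replicate 3 of lines 86 and 87 and between 231 and 242 TPM in the other 6 libraries of the comparison. Both high libraries carry the code R18019, as do line 79 replicate 3 and control replicate 2, which were not high. No line label was called for PTGES3.

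PTGER2 was at 0.19 and 0.24 TPM in untreated cells and at 0.14 TPM or less in the 6 labelled libraries, in 2 of which it was listed at 0. HPGD was at 0.19 and 0.56 TPM in untreated cells and at 0.067 to 0.42 TPM in the labelled libraries. Neither reached the minimum for a test.

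By line label, 3 of the 7 tested genes were called in line 79 (7.95% of all genes), none in line 86 (3.6% of all genes) and 3 in line 87 (5.13% of all genes), and the called genes in lines 79 and 87 were PTGS1, PTGS2 and PTGER4 in each. All were higher, the direction of 2.43% of all genes in line 79 and 2.08% in line 87. With adjusted P, 3 were called in line 79 (5.63% of all genes), none in line 86 (1.37%) and 2 in line 87 (2.65%). In line 86, limma gave an unadjusted P under 0.05 for PTGS2 and PLA2G4A, which were higher, and for PTGES2 and PTGER4, which were lower. All were under the fold threshold, and the share of all genes at that P alone is not given here. Genes whose libraries all lay above the controls made up 22.1%, 23.5% and 22.7% of all genes in lines 79, 86 and 87, and 19.9% lay below them in line 86. These comparisons share both control libraries.

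The difference between the line labels was tested itself with a moderated F test, and a call also needed a 1.5-fold change between labels. By both, 4 of the 7 genes were called, against 14.6% of all genes, or 10.8% with adjusted P. They were PTGS2 (limma adjusted P = 0.00337), PTGER4 (limma adjusted P = 0.00467), PTGS1 (limma adjusted P = 0.00523) and PTGES2 (limma adjusted P = 0.00828). Line 79 was above line 86 in all 4 (9.8% of all genes were called in this contrast, 3.5% with line 79 higher and 7.49% with adjusted P), by 1.09 in PTGER4, 0.94 in PTGS1, 0.78 in PTGS2 and 0.66 in PTGES2 on the log2 scale. Line 87 was above line 86 in the same 4 genes and below it in PTGES (6.46% of all genes, 2.99% higher and 3.47% lower, and 4.01% with adjusted P), by 1.13 in PTGS2, 1.01 in PTGER4, 0.90 in PTGS1 and 0.65 in PTGES2, and by -0.68 in PTGES (limma adjusted P = 0.233). Between lines 87 and 79 no gene of the 7 was called against 8.7% of all genes, or 6.45% with adjusted P, although limma gave an unadjusted P under 0.05 for PTGS2 (0.35, interval 0.081 to 0.61) and PLA2G4A (0.57, limma adjusted P = 0.0234). PLA2G4A also had a limma adjusted P of 0.036 by the F test, but its largest change, 0.57, was under the fold threshold. The share of all genes by the F test alone is not given here.

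The level of PTGS2 ordered the groups as line 87, line 79, line 86 and controls, and of these neighbours lines 79 and 86 differed past both thresholds. Line 87 was highest for both U11 and PTGS2. In line 79, U11 was within the range of its controls, and in line 86 it was above them. For PTGS1 and PTGER4, lines 79 and 87 did not pass the test against each other, with log2 differences of -0.04 (interval -0.32 to 0.24) and -0.08 (interval -0.38 to 0.23) for line 87 against 79. The relation of U11 to these genes was not tested. CDH5, an endothelial cadherin, was at 34.1 and 32.2 TPM in line 79 and between 3.08 and 5.28 TPM in the other 6 libraries of the comparison, while the endothelial markers VWF and PECAM1 were at most 0.30 TPM throughout. Under the knockout label CDH5 was at 0.032 and 0.029 TPM against 4.75 and 4.85 TPM in the controls. The part of any CDH5-expressing cells in these values was not tested.

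**Figure D4:**
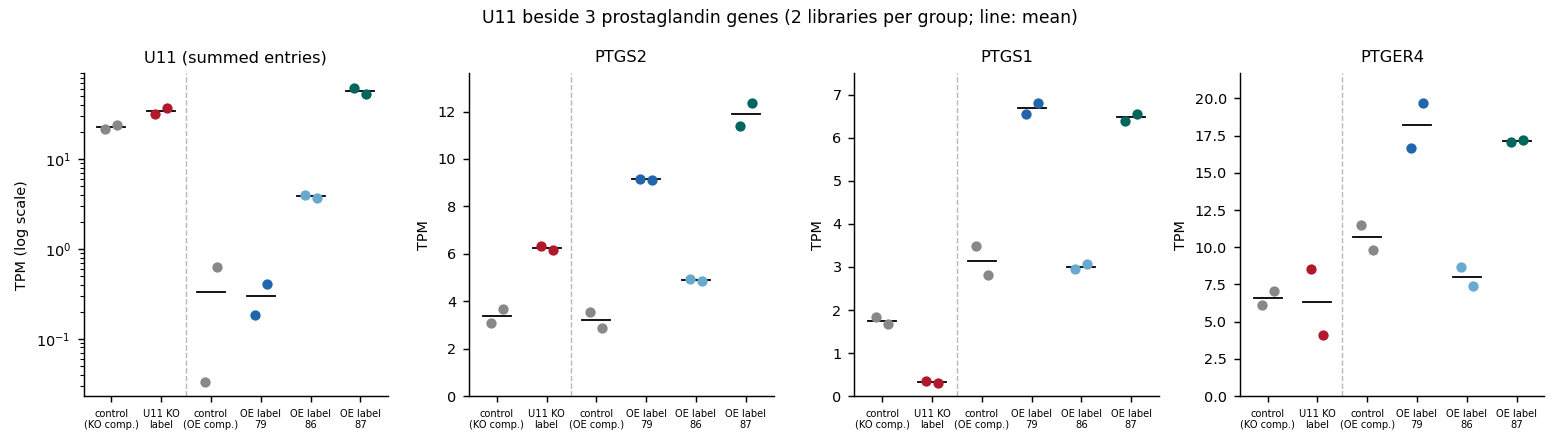
TPM of U11 (first panel, log scale) and of PTGS2, PTGS1 and PTGER4 (linear scales from 0) in every library by group (horizontal axes), with 1 point per library and a line at the mean. Line 87 was highest for both U11 (61.9 and 53.6 TPM) and PTGS2 (11.4 and 12.4 TPM), while line 79 lay below line 86 for U11 and above it for PTGS2.

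Across the 8 libraries of the overexpression comparison, the genes whose log2(TPM + 1) followed PTGS2 most closely were TFPI2 (Pearson r = 0.988), which encodes a secreted protease inhibitor, CMB9-22P13.1 (r = 0.987), SV2A (r = 0.981), SLIT2 (r = 0.976), a secreted guidance factor, and NOL9 (r = 0.974), out of 11163 genes with a mean of at least 5 TPM. TFPI2 was at 180 and 188 TPM in line 79, at 108 and 114 TPM in line 86, at 198 and 205 TPM in line 87 and at 90.4 and 90.6 TPM in the controls. Among the prostaglandin genes, r with PTGS2 was 0.925 for PTGS1, 0.80 for PTGER4, 0.75 for PTGES2, 0.52 for PLA2G4A, 0.24 for PTGES3 and -0.39 for PTGES. The points are pairs of libraries that share a line label, and these values are a description without a test.

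Of 65 other genes of prostanoid synthesis, signalling and arachidonate supply, 37 could be tested under the knockout label, of which 7 were called, 4 higher and 3 lower, against 11.8% of all genes (8.61% higher and 3.15% lower), with a median of 0.20 against 0.11 over all genes. FADS1 and FADS2, the desaturases that make arachidonic acid, both fell. FADS2 was at 9.02 and 8.62 TPM against 17.1 and 17.4 TPM (log2 fold change -0.89, limma adjusted P = 0.0217), and FADS1 was at 49.3 and 39.9 TPM against 81.0 and 69.2 TPM (-0.74, limma adjusted P = 0.0516). ALOX5AP, which presents arachidonic acid to 5-lipoxygenase, was at 0.14 and 0.07 TPM against 1.76 and 1.83 TPM (-1.34, limma adjusted P = 0.0146). Like PTGS1, it passed the filter through its controls alone.

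PDE4B, a cAMP phosphodiesterase, was at 3.09 and 2.75 TPM against 1.00 and 0.82 TPM (1.04, limma adjusted P = 0.0237), and NR4A1, a nuclear receptor induced by cAMP, was at 4.06 and 3.72 TPM against 1.65 TPM in both controls (0.89, limma adjusted P = 0.0275). These 2 were the called genes among the 13 tested of the cAMP signalling list, a share near the 11.8% over all genes, of whose calls 73.2% were higher. PDE4B reached the minimum for a test only with its labelled libraries, so its call was not independent of the difference. The thromboxane receptor TBXA2R (0.64) and ANXA1 (0.67), an inhibitor of phospholipase A2, were called before adjustment only, with limma adjusted P of 0.091 and 0.16.

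In the overexpression comparison, 39 of the 65 genes were tested and ARRB1 alone was called (-0.86, limma adjusted P = 0.654) against 1.93% of all genes, with a median of 0.02 over the list. ARRB1, an arrestin that uncouples receptors, was at 2.55 and 1.26 TPM in line 79, at 3.67 and 3.06 TPM in line 86 and at 1.71 and 1.22 TPM in line 87, against 4.84 and 4.51 TPM in the controls. It fell in line 79 (-1.003, limma adjusted P = 0.0453) and line 87 (-1.21, limma adjusted P = 0.0469).

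AKR1B1, an aldo-keto reductase with prostaglandin F synthase activity, fell in line 79, where it was at 82.8 and 84.9 TPM against 164 and 140 TPM in the controls (-0.84, limma adjusted P = 0.00414). ELAVL1, which encodes HuR, a protein that binds and stabilises the PTGS2 transcript, was at 24.4 and 24.7 TPM in line 86 against 54.1 and 57.6 TPM in the controls (-1.15, limma adjusted P = 0.139). It was at 56.0 and 57.3 TPM in line 79 and divided line 87, at 25.7 TPM in one library and 52.5 TPM in the other. Of the 39 genes, 2 were called in line 79 (7.95% of all genes), 1 in line 86 (3.6% of all genes) and 1 in line 87 (5.13% of all genes). By the F test with the fold threshold, 5 of the 39 were called among the line labels, no larger a share than the 14.6% of all genes, namely AKR1B1 (limma adjusted P = 0.00354), and, before adjustment only, AKR1C3, ELAVL1, PDE4B and ARRB1.

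**Figure D5:**
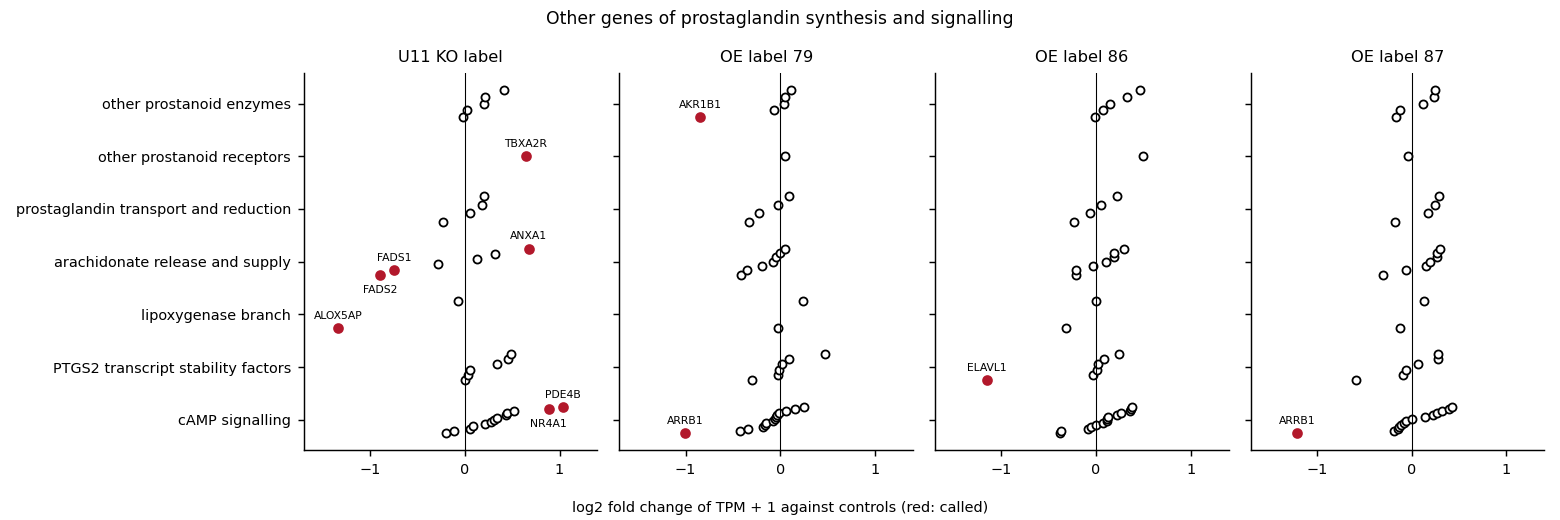
Log2 fold change of TPM + 1 against controls (horizontal axis) for the tested genes of 7 lists of the wider pathway (vertical axis), in 1 panel for the knockout label and for each line label. Red points with names were called, and under the knockout label ALOX5AP lay at -1.34 and PDE4B at 1.04.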

How the data were processed

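RNA of 12 T24 libraries was sequenced, and the authors aligned reads to hg38 with Hisat2, computed gene levels with Stringtie and deposited 1 table per library. The labels name polyA RNA and the study's methods name ribosomal RNA depletion. Tool versions are not given in the sources used here. Each deposited table holds TPM, FPKM and coverage (reads per base) for 60504 entries. There were no counts, so precision is known only through coverage and the spread between libraries, and the count test of the study (DESeq2) could not be used.

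Controls were assigned to a comparison by the library codes in the sample names. log2(TPM + 1) was fitted with limma 3.58.1 (R 4.3.3, eBayes with trend) over all genes with at least 1 TPM in 2 libraries of the comparison, with P adjusted over those genes. Line labels were contrasted in 1 fit of 4 groups on 8 libraries. U11 was tested by exact permutation of the absolute difference in means (Python 3.11.15). The fit was tested on simulated data. Promoters came from RefSeq, in which all 9 genes were found.

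The 9 genes and all gene lists were chosen with earlier results of these data known. All 9 genes are named in each comparison, other pathway genes where they passed the thresholds, at most 8 a comparison, and the 5 genes most like PTGS2. Alternatives were a pseudocount of 0.1, FPKM, median ratio scaling, other filters, no trend, a replicate block, all 4 controls, the mean of each label, other thresholds and leaving out each library. Leaving out a library code was added after seeing the data.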

Additional observations from a re-analysis of the deposited data

Results flagged for a closer look

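For 4 genes, the effect against controls differed between line labels that were all given as U11 overexpression, by the moderated F test on the contrasts among labels together with the fold threshold. The limma adjusted P was 0.00337 for PTGS2, 0.00467 for PTGER4, 0.00523 for PTGS1 and 0.00828 for PTGES2, with 2 libraries per label. PTGS2 was above both controls in 6 of 6 labelled libraries and differed in size, whereas PTGS1, PTGER4 and PTGES2 were above the controls in lines 79 and 87 only, in 4 of 6 labelled libraries. No library of the comparison could be tested for standing apart within its group, since each group held 2 libraries, and the 6 labelled libraries span 3 labels.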

How the results depend on the processing

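Of 103 counts of called genes over all alternatives, 91 stayed within 1.5 times the reported count. For the counts without a fold threshold, the share over all genes is not given here. The exceptions were the overexpression comparison, with 4 genes called against all 4 controls and 0 with adjusted P or without either library code (R17018 or R18019), line 86 with 1 at a pseudocount of 0.1 and 4 without a fold threshold, and line 87 with 5 without a fold threshold. Against all 4 controls, 3233 of 16134 genes tested were called in the overexpression comparison, 2863 of them higher, with a median of 0.39. With its own controls 304 of 15768 were called, so the 4 calls came with a rise over all genes. Leaving out 1 library mostly left a single library in a group, so effect sizes are given for those runs. Under the knockout label PTGS2 was at 0.63 to 0.83 and PLA2G4A at 0.45 to 0.75, and PTGS1 could not be tested without either control. PTGS2 was at 1.16 to 1.39 in line 79, 0.38 to 0.60 in line 86 and 1.51 to 1.73 in line 87. In the overexpression comparison, 2 genes were called without either library of line 86 (2.29% of all genes without replicate 1 and 2.17% without replicate 3). PTGS2 under the knockout label was called under every alternative run (0.60 to 0.87), while PTGS1 passed the filter through its controls alone, so its calls there are no sign of stability. PLA2G4A lost its call there with FPKM (0.49), against all 4 controls (0.33), without the labelled replicate 1 (0.57) and in the settings named beside it in the report. The cause of these shifts was not tested.

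Of 594 values for single genes, 545 kept their direction and call, and 17, none of them called, turned sign. Against all 4 controls PTGES was at 0.20 in the knockout and -0.21 in the overexpression comparison. Without the code R18019, PTGES (-0.18) and PTGES3 (-0.028) turned in the overexpression comparison, and with median ratio scaling PTGES3 was at 0.017 in line 79. With 1 library left out, the ranges were -0.58 to 0.32 for PTGER4 under the knockout label, -0.29 to 0.39 for PTGES over all overexpression labels, -0.11 to 0.12 for PLA2G4A, -0.32 to 0.36 for PTGES and -0.051 to 0.0075 for PTGES3 in line 79, -0.16 to 0.075 for PTGS1 and -0.0074 to 0.54 for PTGES3 in line 86, and -0.61 to 0.073 for PTGES in line 87.

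Deviations from the group means correlated at 0.024 between libraries with the same replicate number in the knockout comparison, and at 0.07 to 0.15 between libraries with the same library code in the overexpression comparison, with 2 pairs each, so the libraries were not treated as paired. Libraries with the code R18019 also shared the haematopoietic markers named in the report. With the replicate block (the library code in the overexpression comparison) the same 3 genes were called in the knockout comparison and PTGS2 alone in the overexpression comparison, and lines 79, 86 and 87 gave 3, 0 and 3 genes, so the block changed no count. Among all genes, FPKM called 173 in the overexpression comparison against 304 with TPM, 790 against 1254 in line 79, 456 against 809 in line 87 and 2.04% of genes against 3.6% in line 86. With FPKM 56.0% of calls under the knockout label were higher, against 73.2%. All 4 controls, which span both library kinds, called 976 of 15433 genes under the knockout label against 1688 of 14356. In the overexpression comparison they called 3233 of 16134 against 304 of 15768. The median over all genes moved to -0.31 and 0.39 in these runs, and the part of the library kind in them was not tested. Levels near 1 TPM, as for PTGES and PTGS1 under the knockout label, limit what can be shown.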

Other observations

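The upstream end of the PTGS2 promoter window overlaps PACERR, a lncRNA entry on the opposite strand (chromosome 1, 186680622-186681446). PACERR was at 0.59 and 0.46 TPM under the knockout label against 0.17 and 0.080 TPM in the controls, all under the minimum for a test. In the overexpression comparison it was at 0.88 and 1.01 TPM in line 79, at 0.54 and 0.87 TPM in line 86 and at 1.06 and 0.57 TPM in line 87, with controls at 0.54 and 0.52 TPM. PACERR met the minimum for a test there, through labelled libraries alone, and no test result is given here.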
